A study of Mus musculus with 12 samples.

Results

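Copying a genome needs a set of proteins that find and open the origins, a set that copies the strands, and a supply of nucleotides. A list of 46 mouse genes of these kinds was compared between bone marrow-derived macrophages that had entered neuroblastoma spheres and macrophages of those cultures that had stayed outside. Members were found by gene symbol: 45 of the 46 had a probe set that the platform annotation gives to that gene alone, out of 17097 genes with such a probe set, and Chaf1a was not analysed here. Where a gene had several such probe sets, the brightest over all 12 arrays was taken. All 45 passed the filter on low values that left 12488 genes for testing, and 44 of them exceeded the filter level of 2.77 on every array. The exception was Ccne2, which did so on 1 of 3 outside arrays at 48 h.

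The arrays fall into 4 groups of 3. Macrophages were grown from bone marrow of C57BL/6 mice, with no genetic change or drug named for any group, and were placed with spheres that the mouse neuroblastoma line TT9423 had formed on agar. In-sphere macrophages were taken at 24 h or 48 h from enzymatically digested spheres over CD11b magnetic columns, and outside macrophages at the same times from the same cultures. The labels do not state digestion or selection of the outside cells. The titles and time labels give 24 h and 48 h, while the protocol text carried by every sample speaks of a 24 h culture. Every group shares the presence of TT9423 cells, and each replicate is an independent experiment in which cells from several wells were pooled. Values are log2 expression, so a difference of 1 is 2-fold in signal. Differences below are fitted differences ± SE with n = 3 against 3, and a gene was called at an adjusted p under 0.05 by limma with Benjamini-Hochberg adjustment over all genes tested.

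In a cell that leaves its resting state, cyclin E with its kinase helps to free E2F factors from the RB family, and E2F factors switch on genes of DNA replication. Origins are marked by the origin recognition complex, the Mcm2-7 ring is loaded there by Cdc6 and Cdt1, and the ring becomes an active helicase when Cdc45 and the GINS complex join it. Mature macrophages divide little in many settings, while growth factors such as CSF1 can bring bone marrow-derived macrophages into the cycle.

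Promoters of 38 of the 46 genes were found in the RefSeq table of build GRCm38.p6, each as a window of 300 bases running from 250 before the annotated start to 50 after it. Because these genes are textbook E2F targets, the windows were searched on both strands for the E2F letters TTTCCCGC, TTTCGCGC, TTTGGCGC and TTTGCCGC. Of the 38 genes, 14 (36.8%) held at least 1 match, against 4.47% of 10067 tested genes with a promoter in the table and 2.6% of all 27025 genes in it. The letters CCAAT were present in 23 of the 38 (60.5%) and in 42.9% of the tested genes. A match is a string of letters and not a measured binding site. The 4 members with a match and the largest in-sphere difference at 24 h are shown 5′ to 3′ on the gene's own strand, with the matched letters in capitals; positions count from 1 at the annotated start base, with negative numbers before it. In Mcm5 the capitals hold overlapping matches on opposite strands, at -153 to -146 and -149 to -142. In Mcm7, 1 of whose 2 listed promoters is shown, they lie at -165 to -158 and 17 to 24. Mcm3 has them at 20 to 27 and 39 to 46, and Pola1 at -138 to -131.
Mcm5, chr8:75109259-75109558, plus strand: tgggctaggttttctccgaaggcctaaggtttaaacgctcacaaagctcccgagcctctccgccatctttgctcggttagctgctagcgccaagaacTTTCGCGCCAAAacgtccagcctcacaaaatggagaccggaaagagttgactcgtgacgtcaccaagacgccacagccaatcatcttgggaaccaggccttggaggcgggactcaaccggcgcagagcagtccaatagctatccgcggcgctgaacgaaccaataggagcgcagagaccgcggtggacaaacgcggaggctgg
Mcm7, chr5:138171834-138172133, minus strand: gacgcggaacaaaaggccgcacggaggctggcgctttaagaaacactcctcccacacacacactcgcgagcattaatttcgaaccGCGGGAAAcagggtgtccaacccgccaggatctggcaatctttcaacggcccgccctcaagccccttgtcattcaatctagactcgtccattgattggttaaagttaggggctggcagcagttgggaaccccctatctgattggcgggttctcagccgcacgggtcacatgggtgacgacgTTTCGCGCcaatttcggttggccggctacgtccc
Mcm3, chr1:20820263-20820562, minus strand: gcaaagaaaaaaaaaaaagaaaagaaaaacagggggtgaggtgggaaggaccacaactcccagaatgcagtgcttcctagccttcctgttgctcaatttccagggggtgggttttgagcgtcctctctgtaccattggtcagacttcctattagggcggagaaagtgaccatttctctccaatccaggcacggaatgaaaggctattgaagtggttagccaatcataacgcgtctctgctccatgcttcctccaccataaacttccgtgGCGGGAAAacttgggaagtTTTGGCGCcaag
Pola1, chrX:93632106-93632405, minus strand: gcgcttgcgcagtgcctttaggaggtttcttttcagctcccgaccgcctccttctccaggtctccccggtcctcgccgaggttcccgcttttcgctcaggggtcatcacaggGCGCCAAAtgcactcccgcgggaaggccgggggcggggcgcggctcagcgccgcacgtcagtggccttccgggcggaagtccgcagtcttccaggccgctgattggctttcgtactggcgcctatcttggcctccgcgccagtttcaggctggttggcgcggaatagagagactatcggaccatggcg

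All 13 macrophage markers with a probe set exceeded the filter level on every array, and their summed linear signal ran from 22888 to 27551. Single macrophage markers differed between the compartments, with 2 of 13 called higher in spheres and 4 lower at 24 h (differences of -1.47 to 2.50), and 3 and 5 at 48 h (-2.31 to 3.40). Calls in the marker lists are to be read against 15.8% of all genes called higher and 13.6% lower at 24 h. At 48 h those shares were 15.2% and 22.3%. Other cell types were checked beside the results that follow. Of 21 neuroblastoma and neural markers, 17 stayed under 4 on the log2 scale on all 12 arrays, among them Phox2a, Hand2, Th and Dbh. Their summed linear signal was 308 to 455 in spheres and 199 to 203 outside at 24 h, and 312 to 371 against 163 to 174 at 48 h. Gap43 (3.99 ± 0.30 at 24 h, adjusted p = 4.4e-06, limma) and Ncam1 (0.99 ± 0.20, adjusted p = 0.00239) were called higher in spheres, and 13 of the 15 that passed the filter were not called at 24 h. At 48 h, 3 of 15 were called higher, Gap43 (4.41 ± 0.30), Ncam1 (1.64 ± 0.20) and Elavl4 (0.66 ± 0.11). TT9423 cells without macrophages were not analysed here. Fibroblast and stromal markers summed to 2030 to 4016 in spheres and 719 to 1021 outside at 24 h, and to 2849 to 2934 against 695 to 1140 at 48 h. Of 11 tested, 5 were called higher and 2 lower at 24 h (differences of -0.76 to 2.64), and 6 and 3 at 48 h (-1.23 to 3.28). Immature myeloid and granulocyte markers had lower sums in spheres, 18654 to 26173 in spheres and 41625 to 49760 outside at 24 h, and 12634 to 20182 against 34151 to 45667 at 48 h. Of 12 tested, 0 were called higher and 7 lower at 24 h, and 1 higher, Prtn3 (2.15 ± 0.32), and 7 lower at 48 h. The 3′ minus 5′ actin control, a measure of RNA integrity, was 0.35 to 0.60 in spheres and 0.22 to 0.32 outside at 24 h, and 0.39 to 0.42 against 0.37 to 0.40 at 48 h. The same control for Gapdh overlapped at 24 h, at -0.12 to 0.43 in spheres and -0.04 to 0.17 outside. At 48 h it was 0.11 to 0.15 against 0.05 to 0.10. The part of these differences in the results on replication genes was not tested. The array of in-sphere replicate 3 at 48 h was dimmer than the rest, with a mean of 4.06.

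RNA of most of the replication genes was more abundant in the in-sphere macrophage samples, at both times. At 24 h, 37 of 45 members were called higher, 1 was called lower and 7 were not called, where 15.8% of all genes tested were called higher and 13.6% lower. The median difference was 1.27, against -0.0068 over all genes. A difference of at least 1 was reached by 26 of the members called higher at 24 h, against 6.25% of all genes. At 48 h, 39 were called higher, 0 were called lower and 6 were not called, with 15.2% and 22.3% of all genes called higher and lower. The 48 h median was 1.54, against -0.10 over all genes, and 31 members called higher reached 1, against 6.61% of genes. Without the dim array, in-sphere replicate 3 of 48 h, these medians were 1.66 and -0.020. In 38 of 45 members all in-sphere arrays lay above all outside arrays at 24 h, which 22% of all genes did, and in 40 at 48 h, against 20.7%. On bulk arrays, more cells with a replication programme and more of its RNA per cell cannot be told apart. The part of RNA from TT9423 or stromal cells in these differences was not tested.

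The members called higher were largely shared between the times. Both comparisons called 37 members higher. Their group means come from different arrays, but the fit shares its estimate of the spread over all 12. Outside arrays of the same replicate number also deviated together between the times, at correlations of 0.471, 0.473 and 0.419. The comparisons are thus not independent of each other. Cdc45 and Rrm2 were called at 48 h alone, and Pcna was called lower at 24 h alone. With their brightest probe sets, Orc1, Gins3, Rfc1, Rfc2 and E2f1 were called at neither time. Centring every array on its median moved the median of all genes at 24 h from -0.0068 to -0.14, and the calls over all genes from 1975 higher and 1694 lower to 1590 higher and 2815 lower. Under that scaling 37 members were called higher at 24 h and 38 at 48 h, and the in-sphere difference of no member changed sign.

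**Figure D1:**
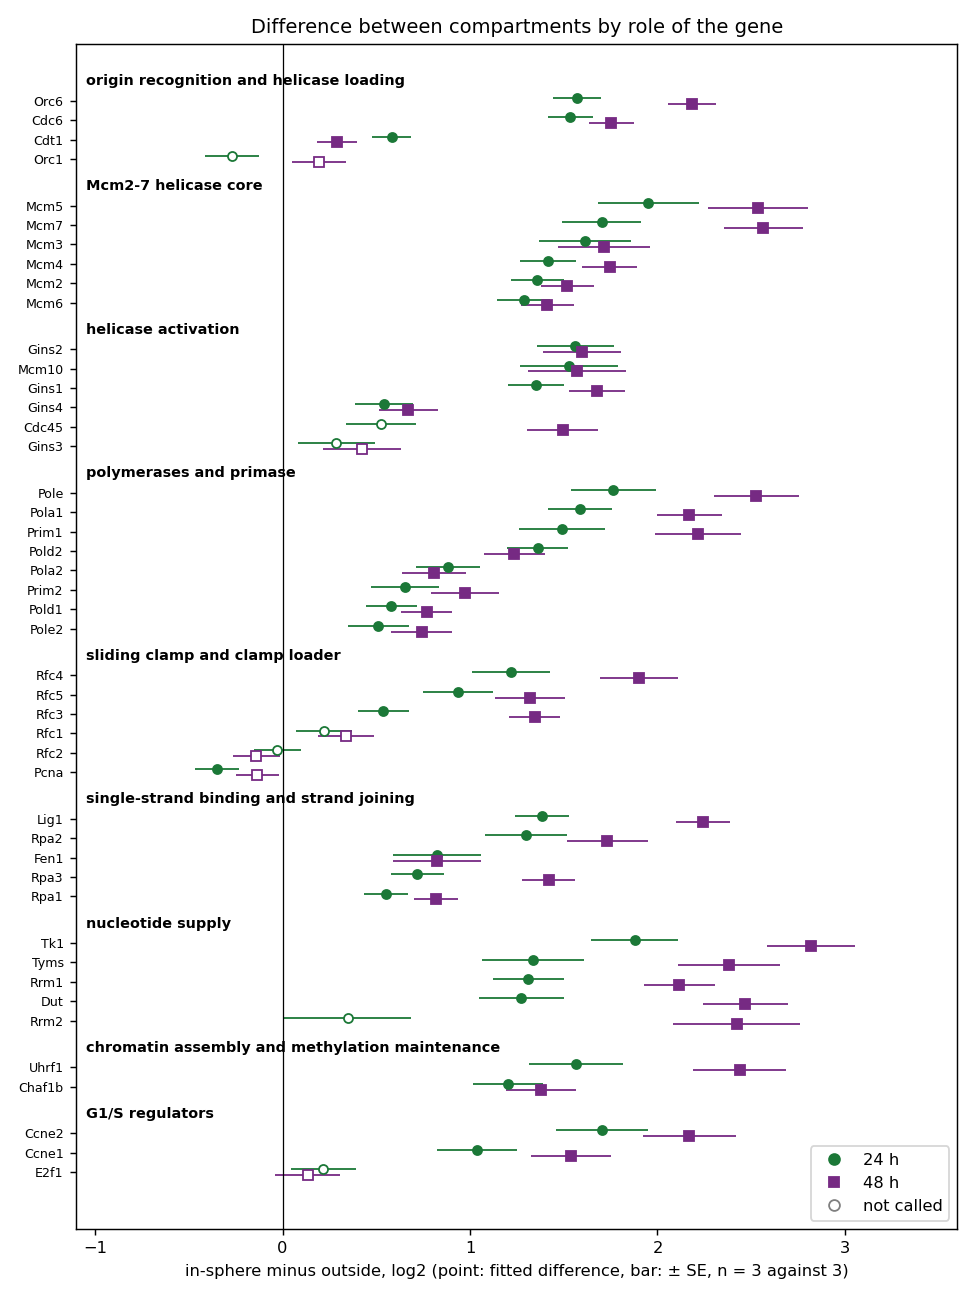
Fitted in-sphere minus outside difference (log2, horizontal axis) of each of the 45 members, grouped by role, at 24 h (circles) and 48 h (squares), with bars of ± SE for n = 3 against 3 arrays; open symbols mark differences that were not called. Most members lie between 0.5 and 3 to the right of 0, while Orc1, Rfc2 and Pcna lie near or left of it.

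Counts by role are to be read against 15.8% of all genes called higher and 13.6% lower at 24 h. At 48 h those shares were 15.2% and 22.3%. Among the genes that mark origins and load the helicase, 3 of 4 were called higher at each time. Orc6, the smallest subunit of the origin recognition complex, had the largest difference at 24 h. In-sphere arrays gave 7.39, 7.18 and 6.98 at 24 h and 7.68, 7.48 and 7.40 at 48 h, while outside arrays gave 5.59, 5.69 and 5.55 and then 5.26, 5.35 and 5.41. Every in-sphere array stood above every outside array, with a gap of more than 1 log2 unit at each time. The difference was 1.57 ± 0.13 at 24 h (2.97-fold, adjusted p = 6.19e-06, limma) and 2.18 ± 0.13 at 48 h (4.55-fold, adjusted p = 4.8e-07). Cdc6, the ATPase that helps to load the ring, differed by 1.54 ± 0.12 and 1.75 ± 0.12. Cdt1, its loading partner, was 0.58 ± 0.11 higher at 24 h and 0.29 ± 0.11 higher at 48 h (adjusted p = 0.0465, limma). This last call was lost with the replicate number as a block (adjusted p = 0.0567) and when any 1 of 9 arrays was left out (0.0528 to 0.159), the 3 outside arrays of 24 h and all 6 arrays of 48 h. Centred arrays or a fit of only the groups compared lost it too (adjusted p = 0.0817 and 0.0634, limma). A dimmer probe set of Cdt1 gave 0.034 ± 0.16 at 48 h.

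Orc1, the largest subunit of the origin recognition complex, did not follow Orc6 with its brightest probe set. Its in-sphere arrays read 3.25, 2.86 and 3.27 at 24 h and 3.23, 3.27 and 3.37 at 48 h, against 3.50, 3.49 and 3.19 and then 2.92, 3.20 and 3.17 outside. The groups overlapped at 24 h, and all 12 values lay close to the filter level. The differences were -0.27 ± 0.14 (adjusted p = 0.189, limma) and 0.20 ± 0.14 (adjusted p = 0.312). The other, dimmer probe set of Orc1 gave 0.74 ± 0.27 at 24 h and 0.92 ± 0.27 at 48 h (adjusted p = 0.0196, limma). The sign at 24 h and the call at 48 h thus depended on the probe set. With the mean of its probe sets, Orc1 was called higher at 48 h (0.56, adjusted p = 0.00952, limma). With arrays weighted by how closely they followed the fit over all genes, the brightest probe set was called lower at 24 h (-0.48, adjusted p = 0.00858, limma). In-sphere replicate 2 of 24 h, the lowest Orc1 array of its group, had a weight of 3.50. Replicates 1 and 3 of that group had weights of 0.35 and 0.59.

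All 6 genes of the Mcm2-7 helicase core were called higher at both times, with medians of 1.52 and 1.73. Mcm5, whose promoter window is printed above, led at 24 h. Its in-sphere arrays read 7.16, 7.43 and 7.40 at 24 h and 7.47, 7.36 and 7.33 at 48 h. Outside arrays read 5.43, 6.02 and 4.70 and then 4.47, 5.08 and 5.01. The in-sphere arrays formed a narrow band at either time, the outside arrays were spread over more than 1 log2 unit at 24 h, and the groups did not overlap. The difference was 1.95 ± 0.27 at 24 h (3.87-fold, adjusted p = 0.000217, limma) and 2.54 ± 0.27 at 48 h (5.80-fold, adjusted p = 2.15e-05).

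Mcm6, another subunit of the ring, had the smallest difference of the 6 at 24 h. In-sphere arrays read 9.19, 9.48 and 9.58 at 24 h and 9.48, 9.28 and 9.31 at 48 h, while outside arrays gave 8.14, 8.37 and 7.89 and then 7.92, 7.93 and 7.98. These groups did not overlap either, with differences of 1.29 ± 0.14 (2.44-fold, adjusted p = 5.1e-05, limma) and 1.41 ± 0.14 (2.66-fold, adjusted p = 1.69e-05). The remaining subunits fell between them at 24 h. Mcm7 differed by 1.70 ± 0.21 and, at 48 h, by 2.56 ± 0.21, the largest value of the ring at that time. Mcm3 gave 1.61 ± 0.25 and 1.72 ± 0.25, Mcm4 1.42 ± 0.15 and 1.74 ± 0.15, and Mcm2 1.36 ± 0.14 and 1.52 ± 0.14.

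**Figure D2:**
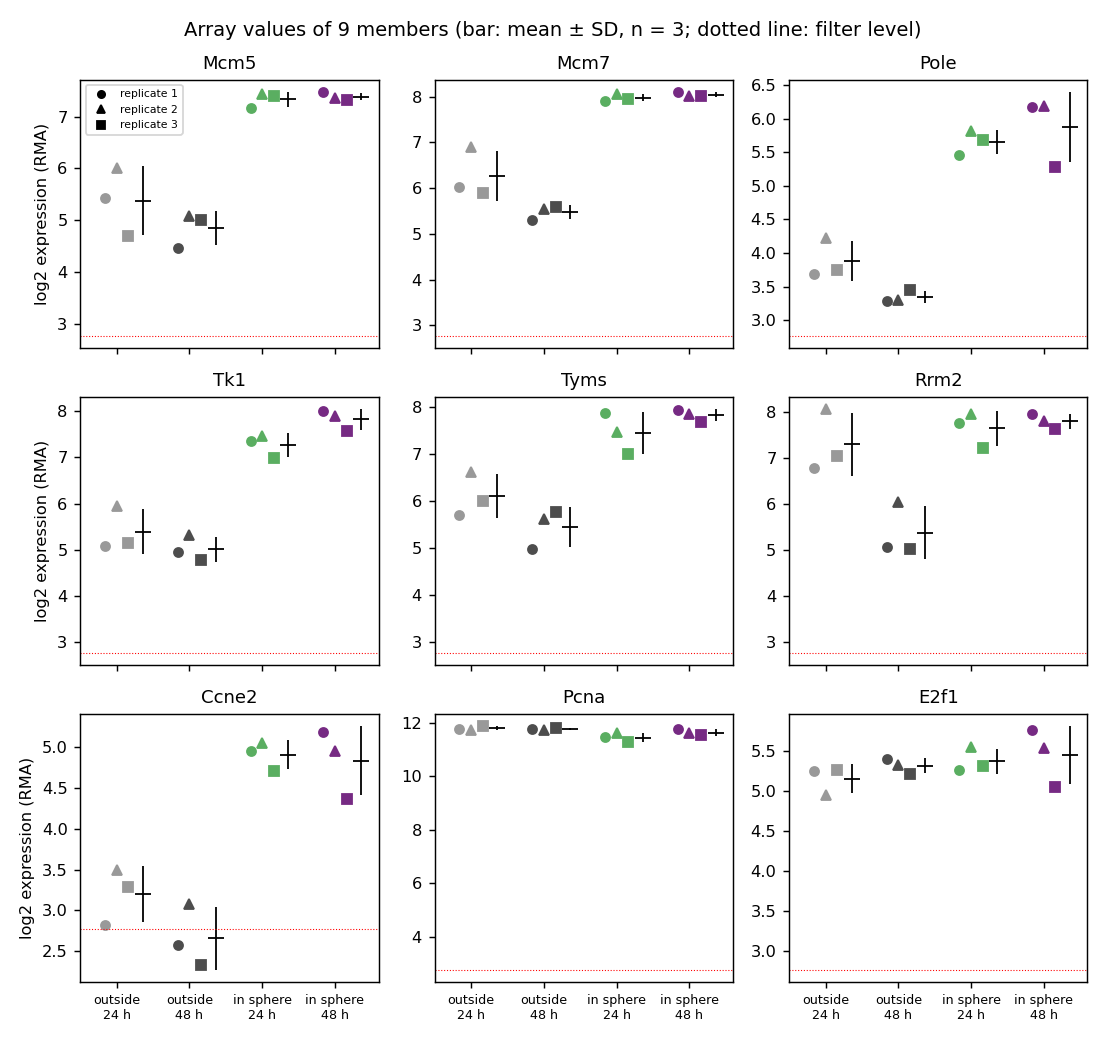
Log2 expression of 9 members on each array (vertical axis, a scale of its own in each panel) by compartment and time (horizontal axis), with a cross for the group mean and a bar of ± SD (n = 3); the marker shape gives the replicate number and the dotted line the filter level of 2.77. Mcm5, Mcm7, Pole, Tk1, Tyms and Ccne2 separate in-sphere from outside arrays at both times, Rrm2 only at 48 h, and Pcna and E2f1 lie within a narrow range.

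Helicase activation was less uniform, with 4 of 6 called higher at 24 h and 5 of 6 at 48 h. Gins2, a subunit of the GINS complex, read 7.95, 7.35 and 7.14 in spheres at 24 h and 7.74, 7.34 and 7.36 at 48 h, against 5.87, 6.20 and 5.70 and then 6.00, 5.94 and 5.71 outside. All in-sphere arrays were above all outside arrays. The differences were 1.56 ± 0.21 (2.95-fold, adjusted p = 0.000172, limma) and 1.60 ± 0.21 (3.03-fold, adjusted p = 8.9e-05). Mcm10, which acts when the helicase starts, gave 1.53 ± 0.26 and 1.57 ± 0.26, and Gins1 1.35 ± 0.15 and 1.68 ± 0.15. Gins4 was 0.54 ± 0.16 higher at 24 h (adjusted p = 0.0196, limma) and 0.67 ± 0.16 at 48 h. The 24 h call for Gins4 was lost without in-sphere replicate 1, outside replicate 1 or outside replicate 3 of that time (adjusted p 0.0524 to 0.0648). It was also lost in a fit of only the groups compared (adjusted p = 0.0528, limma).

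Gins3, the remaining GINS subunit, was not called. Its arrays read 4.62, 4.54 and 4.43 in spheres and 4.03, 4.61 and 4.09 outside at 24 h, and 4.86, 4.60 and 4.10 against 3.99, 3.94 and 4.36 at 48 h. The groups overlapped at both times, with differences of 0.29 ± 0.21 (adjusted p = 0.344, limma) and 0.42 ± 0.21 (adjusted p = 0.130). Without in-sphere replicate 3 of 48 h, the later difference was 0.63 with an adjusted p of 0.0251 (limma). Cdc45, the helicase cofactor, differed by 0.52 ± 0.19 at 24 h (adjusted p = 0.0535, limma) and by 1.49 ± 0.19 at 48 h (adjusted p = 7.5e-05). The 24 h value of Cdc45 passed the threshold with the replicate block (adjusted p = 0.0207, limma) and without outside replicate 2 of 24 h, in-sphere replicate 1 of 48 h or in-sphere replicate 3 of 48 h (0.0166 to 0.0375).

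The polymerase and primase genes were called higher in 8 of 8 cases at each time, with medians of 1.12 and 1.11. Pole, the catalytic subunit of polymerase epsilon, which copies the leading strand, read 5.46, 5.81 and 5.69 in spheres at 24 h and 6.17, 6.18 and 5.27 at 48 h. Outside it read 3.68, 4.23 and 3.75 and then 3.29, 3.30 and 3.45. In-sphere replicate 3 of 48 h was the lowest of the in-sphere arrays, yet it lay above all outside arrays. The differences were 1.76 ± 0.23 (3.40-fold, adjusted p = 0.000150, limma) and 2.53 ± 0.23 (5.77-fold, adjusted p = 7.7e-06).

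Pole2, an accessory subunit of that enzyme, had the smallest difference of the 8 at 24 h. In-sphere arrays read 5.79, 5.88 and 5.41, then 6.00, 5.85 and 5.38, and outside arrays 5.13, 5.23 and 5.19, then 5.01, 5.00 and 4.99. The groups did not overlap, and the differences were 0.51 ± 0.16 (1.42-fold, adjusted p = 0.0339, limma) and 0.74 ± 0.16 (1.67-fold, adjusted p = 0.00362). The 24 h call for Pole2 was lost when any 24 h array other than in-sphere replicate 3 was left out (adjusted p 0.0630 to 0.123). A trended and robust prior or the mean of its probe sets lost that call too (adjusted p = 0.0524 and 0.112, limma). Pola1, the catalytic subunit of polymerase alpha, differed by 1.59 ± 0.17 and 2.17 ± 0.17, and Prim1, the catalytic primase subunit, by 1.49 ± 0.23 and 2.22 ± 0.23. Pold2, a subunit of polymerase delta, gave 1.36 ± 0.16 and 1.24 ± 0.16, and Pola2 gave 0.88 ± 0.17 and 0.81 ± 0.17. Prim2 differed by 0.65 ± 0.18 (adjusted p = 0.0162, limma) and 0.97 ± 0.18, the earlier call being lost without in-sphere replicate 1, in-sphere replicate 2 or outside replicate 1 of 24 h (0.0533 to 0.0661). Pold1, the catalytic subunit of polymerase delta, gave 0.58 ± 0.13 and 0.77 ± 0.13.

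The sliding clamp and its loader formed the most divided group, with 3 of 6 called higher at each time and 1 called lower at 24 h. A count of 1 of 6 lower is close to the 13.6% of all genes called lower then. Rfc4, a loader subunit, read 7.34, 7.42 and 6.78 in spheres at 24 h and 7.61, 7.31 and 7.28 at 48 h, against 5.66, 6.37 and 5.88 and then 5.54, 5.66 and 5.30 outside. No outside array reached an in-sphere array. The differences were 1.22 ± 0.21 (2.32-fold, adjusted p = 0.000968, limma) and 1.90 ± 0.21 (3.73-fold, adjusted p = 2.76e-05). Rfc5 differed by 0.94 ± 0.19 and 1.32 ± 0.19, and Rfc3 by 0.54 ± 0.13 and 1.34 ± 0.13.

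Rfc2, a subunit of the same loader, showed almost no difference. Its arrays read 7.68, 7.80 and 7.62 in spheres and 7.65, 7.74 and 7.80 outside at 24 h, and 7.78, 7.76 and 7.39 against 7.90, 7.76 and 7.69 at 48 h. The groups overlapped at both times, with differences of -0.03 ± 0.13 (adjusted p = 0.908, limma) and -0.14 ± 0.13 (adjusted p = 0.422). Rfc1, the large subunit, gave 0.22 ± 0.15 (adjusted p = 0.315, limma) and 0.34 ± 0.15 (adjusted p = 0.0972). Leaving out in-sphere replicate 3 of 48 h took the later Rfc1 difference to 0.48 (adjusted p = 0.0200, limma).

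Pcna, the clamp that holds polymerases on DNA, was the member called lower at 24 h. In-sphere arrays read 11.48, 11.61 and 11.27 and outside arrays 11.78, 11.73 and 11.89, all in-sphere values being the lower. At 48 h the readings were 11.76, 11.62 and 11.53 in spheres and 11.77, 11.73 and 11.82 outside, and the groups overlapped. The difference was -0.35 ± 0.12 at 24 h (1.27-fold lower, adjusted p = 0.0403, limma) and -0.13 ± 0.12 at 48 h (adjusted p = 0.397). This call depended on the setting. The adjusted p was 0.0550 with the replicate block, and 0.0549 to 0.131 when any 1 of 9 arrays was left out, the exceptions being in-sphere replicate 2 of 24 h and in-sphere replicates 1 and 3 of 48 h. Pcna has 1 single-gene probe set here, so no second probe set bears on the value.

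Single-strand binding and strand joining genes were called higher in 5 of 5 cases at both times. Lig1, the ligase that seals lagging-strand fragments, read 7.54, 7.90 and 7.59 in spheres at 24 h and 8.07, 8.10 and 7.97 at 48 h. Outside arrays gave 6.07, 6.59 and 6.23 and then 5.80, 5.86 and 5.75. In-sphere and outside arrays were further apart at 48 h, with differences of 1.38 ± 0.14 (2.61-fold, adjusted p = 3.3e-05, limma) and 2.24 ± 0.14 (4.73-fold, adjusted p = 1.1e-06). Rpa1, the large subunit of the single-strand binding complex, had the smallest 24 h difference of this role. It read 8.83, 8.72 and 8.54 in spheres and 8.10, 8.22 and 8.11 outside at 24 h, and 8.88, 8.74 and 8.63 against 8.05, 7.89 and 7.86 at 48 h. Those groups did not overlap, and they differed by 0.55 ± 0.12 (1.46-fold, adjusted p = 0.00399, limma) and 0.82 ± 0.12 (1.77-fold, adjusted p = 0.000198).

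The partners of Rpa1 differed more. Rpa2 gave 1.30 ± 0.22 and 1.73 ± 0.22, and Rpa3 gave 0.72 ± 0.14 and 1.42 ± 0.14. Fen1, the nuclease that trims lagging-strand flaps, gave 0.82 ± 0.23 at 24 h (adjusted p = 0.0190, limma) and 0.82 ± 0.23 at 48 h (adjusted p = 0.0154). Its 24 h call was lost without in-sphere replicate 1, in-sphere replicate 2 or outside replicate 3 of 24 h (0.0559 to 0.0793), and its 48 h call without in-sphere replicate 1 or outside replicate 1 of 48 h (0.0523 and 0.0564). With only the groups compared in the fit, the 24 h call of Fen1 was lost as well (adjusted p = 0.0503, limma).

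The nucleotide supply genes reached the largest differences at 48 h, with 4 of 5 called higher at 24 h and 5 of 5 at 48 h and medians of 1.31 and 2.42. Tk1, the cytosolic thymidine kinase, read 7.36, 7.47 and 6.98 in spheres at 24 h and 8.01, 7.89 and 7.58 at 48 h. Outside it read 5.09, 5.95 and 5.14 and then 4.94, 5.31 and 4.77. Every in-sphere array was above every outside array by at least 1 log2 unit. The differences were 1.88 ± 0.23 (3.67-fold, adjusted p = 0.000117, limma) and 2.82 ± 0.23 (7.05-fold, adjusted p = 4.4e-06).

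Rrm2 encodes the small subunit of ribonucleotide reductase, which makes deoxynucleotides, and was called at 48 h alone. Its in-sphere arrays read 7.76, 7.97 and 7.23 at 24 h and 7.96, 7.81 and 7.63 at 48 h. Outside arrays read 6.78, 8.07 and 7.06 at 24 h and 5.08, 6.04 and 5.02 at 48 h. At 24 h outside replicate 2 was the highest of all 6 arrays and the groups overlapped, whereas at 48 h every outside array was below every in-sphere array. The in-sphere difference was 0.35 ± 0.34 at 24 h (adjusted p = 0.500, limma) and 2.42 ± 0.34 at 48 h (5.36-fold, adjusted p = 0.000162).

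The other members of that role were called higher at both times. Rrm1, the large reductase subunit, differed by 1.31 ± 0.19 and 2.12 ± 0.19. Dut, which keeps uracil out of DNA, gave 1.27 ± 0.23 and 2.47 ± 0.23. Tyms, the thymidylate synthase, gave 1.34 ± 0.27 and 2.38 ± 0.27 with its brightest probe set. Averaged with its dim probe sets, the 24 h difference of Tyms was 0.26 (adjusted p = 0.0849, limma).

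Both measured genes of chromatin assembly and methylation maintenance were called higher at both times. Uhrf1, which recognises newly copied, hemimethylated DNA, read 7.62, 7.67 and 7.20 in spheres at 24 h and 7.81, 7.82 and 7.60 at 48 h, against 5.58, 6.49 and 5.73 and then 4.93, 5.74 and 5.24 outside. Outside replicate 2 was the highest outside array at either time, and still below all in-sphere arrays. The differences were 1.56 ± 0.25 (2.96-fold, adjusted p = 0.000602, limma) and 2.44 ± 0.25 (5.42-fold, adjusted p = 1.78e-05). Chaf1b, a subunit of the histone chaperone CAF-1, read 5.90, 5.43 and 5.27 in spheres and 4.22, 4.58 and 4.19 outside at 24 h, and 5.61, 5.39 and 5.54 against 4.38, 4.19 and 3.85 at 48 h. Its groups did not overlap, with differences of 1.20 ± 0.19 (2.30-fold, adjusted p = 0.000508, limma) and 1.38 ± 0.19 (2.60-fold, adjusted p = 0.000127).

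Of the G1/S regulators, the E cyclins were called higher at both times and E2f1 at neither. Ccne2 read 4.95, 5.05 and 4.70 in spheres and 2.82, 3.49 and 3.28 outside at 24 h, and 5.18, 4.95 and 4.36 against 2.57, 3.08 and 2.33 at 48 h. Outside values at 48 h lay around the filter level, so the size of the 48 h difference rests on dim arrays. The differences were 1.70 ± 0.25 (3.26-fold, adjusted p = 0.000315, limma) and 2.17 ± 0.25 (4.50-fold, adjusted p = 3.5e-05). Ccne1 gave 1.04 ± 0.21 and 1.54 ± 0.21. E2f1, the founding activator of the E2F family, read 5.26, 5.55 and 5.31 in spheres and 5.25, 4.95 and 5.26 outside at 24 h, and 5.76, 5.53 and 5.05 against 5.40, 5.33 and 5.22 at 48 h. Its groups overlapped at both times, with differences of 0.22 ± 0.17 (adjusted p = 0.394, limma) and 0.13 ± 0.17 (adjusted p = 0.583).

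The in-sphere differences can be read beside the E2F letters in the promoter windows. The 14 genes with a match had medians of 1.33 at 24 h and 1.56 at 48 h, and 12 were called higher at each time. The 23 genes with a promoter in the table, array values and no match had medians of 1.20 and 1.52, with 18 and 20 called higher. Of all genes tested, 15.8% and 15.2% were called higher at these times. Windows with a match included those of Orc1 and Gins3, which were not called with their brightest probe sets. The 5 nucleotide supply genes had none of the letters in theirs. These are descriptions of a short window, and no difference between the sets was tested.

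Other probe sets of the same genes gave a further reading. The 45 members had 78 single-gene probe sets, of which 33 were not the brightest of their gene and 22 of those passed the filter. Their in-sphere difference had the sign of the brightest probe set in 19 of 22 at 24 h and 22 of 22 at 48 h, with 12 and 15 called higher and 0 called lower. In that fit of all 20235 single-gene probe sets that passed the filter, 13.5% were called higher and 12.2% lower at 24 h, and 12.9% and 21.2% at 48 h. They share RNA and arrays with the brightest probe sets, so they bear on the probes and not on the cultures.

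Between the times, most members had lower means outside the spheres, but few of the changes were called. Outside, the mean at 48 h was below that at 24 h in 40 of 45 members (88.9%), against 43.7% of all genes, and inside it was above in 30 of 45 (66.7%), against 36.1%. In spheres 0 members were called in either direction by limma, as were 0% of all genes, and 4 were higher at an unadjusted p under 0.05, against 3.03% of all genes. Outside, in the main fit without the replicate block, 1 member was called lower and 0 higher. Of all genes, 0.224% and 0.112% were called lower and higher there. At an unadjusted p under 0.05, 16 of 45 members were lower outside at 48 h, against 4.56% of all genes, and 1, Cdt1, was higher. All 48 h outside arrays lay below all 24 h outside arrays in 18 of 45 members, which 8.66% of all genes did.

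The member called lower outside was Rrm2, whose outside arrays are given above. It fell by 1.93 ± 0.34 on the log2 scale between the times (3.80-fold, adjusted p = 0.0390, limma), while its in-sphere change was 0.15 ± 0.34 (adjusted p = 0.910). The adjusted p of the outside change was 0.00574 with the replicate number as a block, and 0.0522 to 0.173 when any 1 of 8 arrays was left out, those being in-sphere replicates 1 and 2 and outside replicates 2 and 3 of 24 h, and in-sphere replicates 1 and 2 and outside replicates 1 and 3 of 48 h. With only the groups compared in the fit, the adjusted p of the outside change was 0.124 (limma). Outside replicates of the same number deviated together between the times, so the block bears on this comparison. With the block, 2 members were called lower outside, Rrm2 and Cdc45, where 0.785% of all genes were. Cdc45 read 5.15, 5.53 and 5.14 outside at 24 h and 4.41, 4.67 and 4.35 at 48 h, with no overlap. Its outside change was -0.80 ± 0.19 (1.74-fold lower, adjusted p = 0.116, limma), with an adjusted p of 0.0334 under the block.

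**Figure D3:**
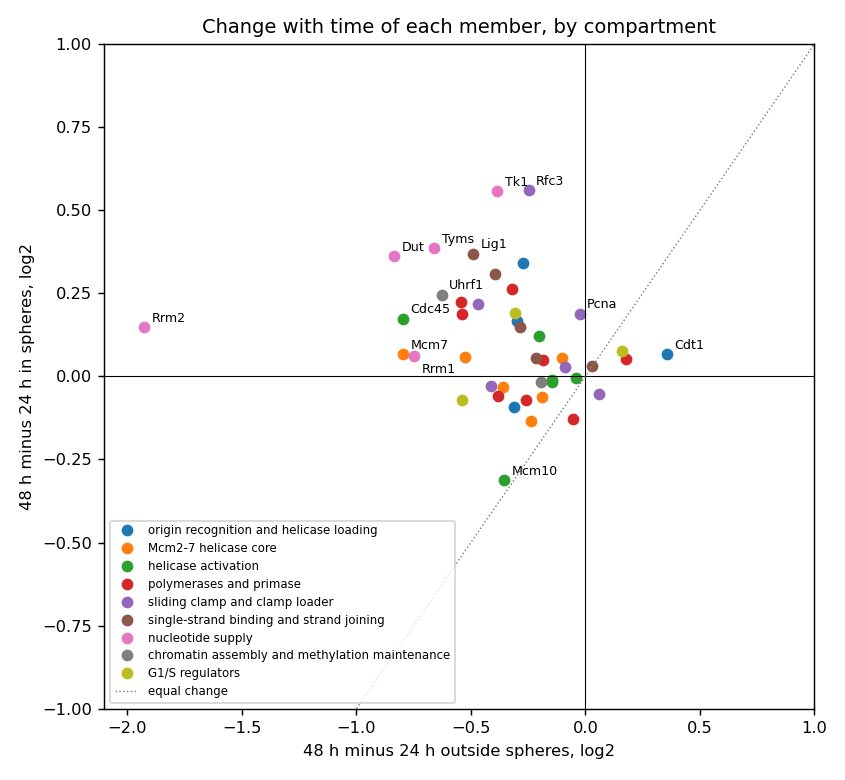
Change from 24 h to 48 h of each of the 45 members outside the spheres (horizontal axis, log2) and inside them (vertical axis, log2), coloured by role; the dotted line marks equal change. Points lie mostly to the left of 0, and Rrm2 stands apart at an outside change of -1.93, while in-sphere changes stay between -0.31 and 0.56.

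Whether the in-sphere difference itself changed with time was tested by the interaction of compartment and time. It was larger at 48 h than at 24 h in 40 of 45 members (88.9%), against 35.5% of all genes, with a median change of 0.33 against -0.10. Without in-sphere replicate 3 of 48 h the medians were 0.43 and -0.024. By limma 0 members were called, as were 0% of all genes in either direction, and 17 of 45 were higher at an unadjusted p under 0.05, against 3.89% of all genes. Those 17 included all 5 nucleotide supply genes of the member list. Of the 24 further nucleotide supply genes described below, 3 were higher and 2 lower at that threshold, with a median change of -0.09. Of the 5 genes of S and G2 phase described below, 4 were higher, with a median change of 1.70. Among the members Rrm2 had the largest change, 2.07 ± 0.48 (adjusted p = 0.148, limma), which with the replicate block was 2.07 ± 0.33 (adjusted p = 0.0375). Rrm2 was the member called under the block, where 0.360% of all genes were called higher. The change for Cdc45 was 0.97 ± 0.27 (adjusted p = 0.188, limma). It was called when arrays were centred on their median (adjusted p = 0.0460) or weighted by how closely they followed the fit (adjusted p = 0.0346). Dut gave 1.20 ± 0.32, Tyms 1.04 ± 0.39, Tk1 0.94 ± 0.33 and Rrm1 0.81 ± 0.27, none of them called.

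Replicates of a group tended to be high or low together across the members. On each array, the median deviation of the 45 members from their own means over all arrays was 0.39 to 0.72 in spheres and -0.69 to -0.24 outside at 24 h, and 0.58 to 0.89 against -0.92 to -0.75 at 48 h. No outside array reached an in-sphere array. Outside replicate 2 of 24 h had the highest outside value of that time in 36 of 45 members (80%), against 34.9% of all genes. In-sphere replicate 1 of 48 h was the highest of its group in 37 of 45 (82.2%), against 50.2% of all genes, and in-sphere replicate 3 in 1 of 45 (2.22%), against 11.3%. The members are thus not independent readings of a group, and their counts rest on 3 arrays on each side.

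**Figure D4:**
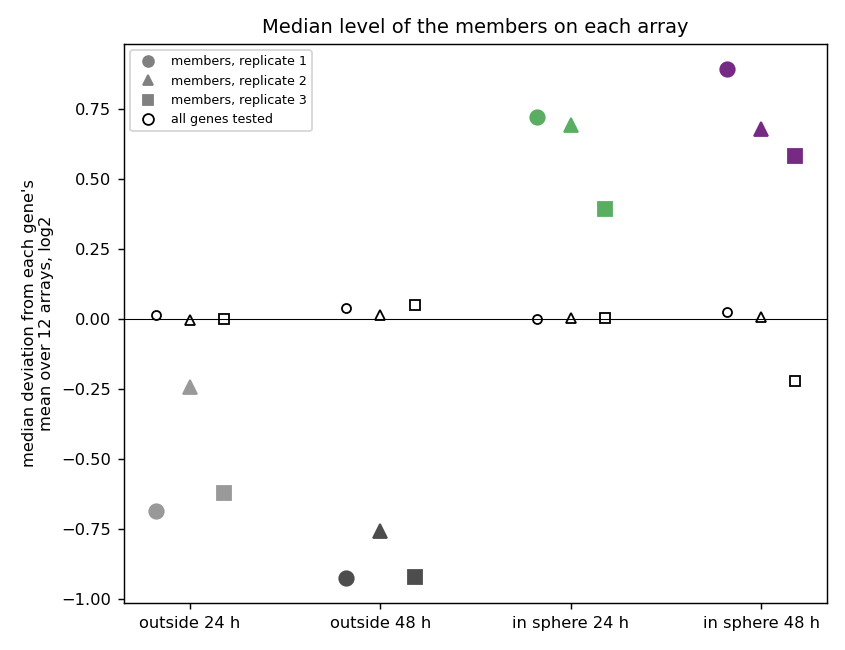
Median deviation of the 45 members (filled symbols) and of all genes tested (open symbols) from each gene's mean over 12 arrays (vertical axis, log2), for each array by compartment and time (horizontal axis); the marker shape gives the replicate number. Member medians are 0.39 or higher on all in-sphere arrays and -0.24 or lower on all outside arrays, and the all-gene median leaves the vicinity of 0 on in-sphere replicate 3 of 48 h, at -0.22.

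Other genes of the same pathway were described from further lists, to be read against 15.8% of all genes called higher and 13.6% lower at 24 h, and 15.2% and 22.3% at 48 h. Of 29 tested replication factors outside the member list, 12 were called higher and 0 lower at 24 h (median 0.45), and 17 and 0 at 48 h (median 0.85). The largest at 24 h were Hells, a chromatin remodeller of replicating cells, at 2.47 ± 0.21 and 2.97 ± 0.21 at 48 h, and the fork protection partners Timeless (1.65 ± 0.25 and 1.94 ± 0.25) and Tipin (1.45 ± 0.18 and 2.18 ± 0.18). At 48 h Top2a, the topoisomerase that untangles copied chromosomes, was among the leaders with 2.78 ± 0.23. The origin complex subunits Orc2, Orc4 and Orc5 were not called at either time.

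Among 24 further nucleotide supply genes, 15 were called higher and 3 lower at 24 h (median 0.55), and 13 and 4 at 48 h (median 0.57). Those highest at 24 h were Ctps, which makes CTP (1.51 ± 0.16), Dctd, a deoxycytidylate deaminase (1.27 ± 0.30), and Cad, which starts pyrimidine synthesis (1.25 ± 0.16). The genes called lower were Samhd1, which breaks down deoxynucleotides (-0.83 ± 0.20), the mitochondrial thymidine kinase Tk2 (-0.62 ± 0.19) and Ctps2 (-0.37 ± 0.12). With any 1 of the outside arrays of 24 h left out, 1 gene of the list was called lower at that time.

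The E2F and RB family was mostly not called at 24 h. Of 12 tested genes, Rbl1 was called higher (0.72 ± 0.13) and Rb1 lower (-0.41 ± 0.12, adjusted p = 0.0176, limma), and leaving out in-sphere or outside replicate 2 of 24 h removed the lower call. A count of 1 of 12 in each direction is below the share of all genes called. The higher calls rose to 3 without outside replicate 2 of 24 h or in-sphere replicate 3 of 48 h, and to 2 with the replicate block. At 48 h, 4 were called higher, among them the late repressors E2f7 (2.35 ± 0.29) and E2f8 (1.41 ± 0.26) and Rbl1 (1.24 ± 0.13), and 2 lower, E2f3 (-0.67 ± 0.20) and E2f4 (-0.44 ± 0.15). Those lower calls fell to 1 or 0 without in-sphere replicate 2 or 3, or outside replicate 1, 2 or 3, of 48 h.

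Of 5 tested cyclins, kinases and proliferation markers of S and G2 phase, 2 were called higher at 24 h and 4 at 48 h. Ccna2, the S-phase cyclin, differed by 1.17 ± 0.24 and 2.87 ± 0.24, and Cdk1 by 1.04 ± 0.22 and 2.37 ± 0.22. Mki67, the gene of the Ki-67 antigen, gave 0.59 ± 0.23 at 24 h (adjusted p = 0.0674, limma) and 2.59 ± 0.23 at 48 h (adjusted p = 5.9e-06), and Ccnb2 was 2.88 ± 0.33 higher at 48 h. With the replicate block, or without outside replicate 2 of 24 h or of 48 h, 4 of the 5 were called at 24 h. Outside the spheres, Mki67 fell by 1.56 ± 0.23 from 24 h to 48 h (adjusted p = 0.0187, limma) and Ccna2 fell by 1.37 ± 0.24 (adjusted p = 0.0374). The Mki67 call was lost without outside replicate 2 or 3 of 24 h or outside replicate 1 or 3 of 48 h (0.0568 to 0.0820), and that of Ccna2 without any 1 of 8 arrays (0.0530 to 0.165), all but outside replicate 1 of 24 h, in-sphere replicates 1 and 3 of 48 h and outside replicate 2 of 48 h. With only the groups compared in the fit, both calls were lost (adjusted p = 0.0900 for Mki67 and 0.125 for Ccna2, limma). The mean of its probe sets also took Ccna2 over the threshold (adjusted p = 0.0531, limma).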

How the data were processed

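RNA of 12 macrophage samples was measured on Affymetrix mouse arrays. The authors deposited log2 RMA values, for which the submitters' processing notes name Affymetrix Expression Console 1.1. RMA includes a background step, quantile normalisation over the arrays and a summary of each probe set, so dim probe sets show compressed differences and a difference in total RNA per cell is removed. The table holds 0 missing values, and precision is limited by the number of arrays. Scanner files were not used here.

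Gene names came from the platform annotation, which gives 28898 probe sets exactly 1 symbol and 551 several. For each gene the probe set with the highest mean was kept, and it was tested if it exceeded 2.77, the 40th percentile of all values, on at least 3 arrays. The 12 arrays were fitted together by group with limma 3.58.1 under R 4.3.3, leaving 8 residual and adding 4.09 prior degrees of freedom. The script was first tested on simulated data. In-sphere was set against outside cells at either time, 48 h against 24 h within each compartment, and the interaction was tested. With 3 arrays against 3, an exact permutation test of a single gene cannot go below 0.1, so the fit across all genes was used. An unadjusted p refers to that fit.

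The 46 members, their 9 roles, the 4 further pathway lists and the 4 marker lists were chosen with earlier results of these data known. Array values are printed, per role, for the members with the largest and smallest size of difference at 24 h and for members called lower; of each further list, up to 3 called genes per direction are named, plus Ccna2 and Mki67. Other genes named from the lists, among them Cdc45's array values, Top2a, Orc2, Orc4 and Orc5 and the marker genes, were chosen after their values were seen. Promoters are from RefSeq, build GRCm38.p6; gene coordinates in the text are those of the promoter windows.

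Replicate numbers come from the titles. Deviations from the group means of same-numbered arrays correlated at 0.471, 0.473 and 0.419 between outside arrays of 24 h and 48 h, and at 0.0215 to 0.219 between other groups. The numbers thus appear to pair the outside arrays over time. The main fit left this pairing out, and only the replicate block, an alternative, holds it. With the block, 60 of all genes were called higher and 98 lower outside between the times. The main fit called 14 and 28. The labels do not say that a number marks a shared day or batch. Alternatives were the filter, the choice of probe set, centred arrays, array weights, a trended and robust prior, the replicate block, only the groups compared, and each array left out in turn.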

Additional observations from a re-analysis of the deposited data

How the results depend on the processing

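Counts of members called higher in spheres moved little: 36 to 39 at 24 h and 38 to 41 at 48 h over the settings that kept all arrays. With each array left out in turn they were 33 to 38 and 37 to 40. Over all genes, higher calls ran from 1590 to 2553 at 24 h and from 1760 to 2672 at 48 h with all arrays kept. Those settings tested 9251 to 17097 genes. With arrays left out, the higher calls over all genes ran from 1615 to 2191 and from 1559 to 2040. The 1 member called lower at 24 h, Pcna, became 0 with the probe set of largest variance, the replicate block or only the groups compared, and 0 to 1 with arrays left out. Over all genes, 1694 called lower became 1641, 1766 and 1526 in that order, and 1298 to 1984 with arrays left out. With array weights the count of members stayed 1, but Pcna lost its call (-0.24, adjusted p = 0.0642, limma) and Orc1 was called lower (-0.48, adjusted p = 0.00858). The 1 member called lower outside between the times became 2 with centred arrays, 2 with the replicate block, 3 with array weights (Rrm2, Cdc45 and Rrm1) and 0 with only the groups compared, and 0 to 2 with arrays left out. Over all genes, 28 called lower became 88 with centred arrays, 98 with the block, 145 with weights and 1 with only the groups compared. With arrays left out, 0 to 38 of all genes were called lower outside. For the change of the in-sphere difference, 0 members called higher became 1 with centred arrays, 1 with the replicate block and 1 with array weights. Over all genes, 0 called higher became 45, 45 and 76 in the same order. In the further lists at 24 h, the E2F and RB family went from 1 higher to 2 with the stricter filter and 2 with the replicate block, and to 1 to 3 with arrays left out, and from 1 lower to 0 to 1. Its 2 lower calls at 48 h became 1 with the stricter filter and 0 to 2 with arrays left out. The cyclins and kinases of S and G2 went from 2 higher at 24 h to 4 with the replicate block and 2 to 4 with arrays left out, and the 3 lower calls of the further nucleotide supply genes became 1 to 3. Signs turned in 8 gene-level values, none of them called in the main setting: Orc1 at 24 h was 0.24 with the mean of its probe sets and 0.74 with the probe set of largest variance. Rfc2 at 24 h was 0.057 with array weights and -0.075 to 0.011 with arrays left out, above 0 without in-sphere replicate 3 (0.011) or outside replicate 3 (0.0074) of 24 h. E2f1 at 48 h ran from -0.024, without in-sphere replicate 1 of 48 h, to 0.33 with arrays left out. The in-sphere change of Rrm2 over time was -0.015 with array weights and ran from -0.062, without in-sphere replicate 3 of 24 h, to 0.31 with arrays left out. Of the other gene-level values, 2048 kept direction and side of the threshold, 72 lost a call and 30 gained one. The cause was not tested, except that leaving out arrays or groups leaves fewer residual degrees of freedom. Dim members such as Orc1 and Ccne2 lie near the filter level, where RMA compresses differences.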
